A study of Mus musculus with 12 samples.

Results

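The neurotrophin system of the mouse hippocampus was followed through 6 genes, chosen by symbol from the 31766 genes counted in either of the deposited tables. They were the ligand genes Bdnf and Ntf3, the tyrosine kinase receptor genes Ntrk2 and Ntrk3, the pan-neurotrophin receptor gene Ngfr, and Sort1, which encodes the sorting receptor sortilin. All 6 passed the filter on low counts in the dorsal, the ventral and the 12-sample fits. Adult mice were the source of both dorsal and ventral hippocampal tissue, and transcripts were counted by 3′ end sequencing, in which a read is a tag from near the polyadenylated end. There were 4 groups of 3 samples. In both cKO groups the mice carried Tet3fl/fl, a pair of floxed alleles of the methylcytosine dioxygenase gene Tet3, together with Camk2a-CreERT2, a tamoxifen-inducible Cre recombinase. The control groups were Tet3fl/fl without Cre. The labels list tamoxifen for the samples of all 4 groups, given intraperitoneally at 50 mg/kg from 6 weeks of age, with 2 injections a day for 5 days, a break of 7 days and 5 further days. The Camk2a promoter drives Cre in excitatory forebrain neurons, so a hippocampal sample also holds neurons, glia and vessels in which the alleles were not recombined. Samples are named by the number in their titles: 41, 49 and 71 (dorsal control), 40, 43 and 64 (dorsal cKO), 41, 49 and 50 (ventral control) and 40, 63 and 64 (ventral cKO).

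Neurotrophins are secreted as precursors that proteases cut to the mature ligand. Mature BDNF binds TrkB, the product of Ntrk2, and NT-3, the product of Ntf3, binds mainly TrkC, the product of Ntrk3; the bound receptors signal through the Ras-ERK, PI3K-Akt and PLCγ pathways. The precursors bind p75, the product of Ngfr, together with sortilin, and sortilin also sorts BDNF precursor into the regulated secretory pathway. In the hippocampus BDNF is made mostly by excitatory neurons in an activity-dependent way, and it is known for its part in synaptic plasticity and in survival of new neurons. Astrocytes carry mainly truncated TrkB, and in the healthy adult forebrain p75 is known chiefly from cholinergic neurons whose axons reach the hippocampus.

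Bdnf (ENSMUSG00000048482) lies on chromosome 2 at 109674700 to 109727007 on the plus strand of GRCm38, with 11 protein-coding transcripts from 9 start sites that share 1 annotated end. A 3′ tag therefore counts Bdnf from all of its promoters together. RefSeq (GRCm38.p6) gave 250-base windows upstream of 7 Bdnf start sites, and these windows held 1 to 13 CG dinucleotides, the sites at which DNA can be methylated and at which TET enzymes act. The median over all 32851 windows of the table was 6. A pair is shown as examples of the alternative promoters that a gene count pools, with each CG in capitals. The first is the upstream-most start (109674700, window chr2:109674450-109674699, plus strand). The second is the start at 109692436 (window chr2:109692186-109692435, plus strand).

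Bdnf, start 109674700: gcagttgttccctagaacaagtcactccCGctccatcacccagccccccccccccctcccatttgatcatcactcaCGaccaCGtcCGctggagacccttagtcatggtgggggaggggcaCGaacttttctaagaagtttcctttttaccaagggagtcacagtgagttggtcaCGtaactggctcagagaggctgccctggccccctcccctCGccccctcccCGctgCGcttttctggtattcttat

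Bdnf, start 109692436: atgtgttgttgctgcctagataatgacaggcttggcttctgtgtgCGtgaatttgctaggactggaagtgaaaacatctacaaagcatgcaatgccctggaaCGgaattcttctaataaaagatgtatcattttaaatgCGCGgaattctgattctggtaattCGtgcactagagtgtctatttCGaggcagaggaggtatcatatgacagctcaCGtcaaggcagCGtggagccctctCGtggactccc

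Each of these windows held 9 CG, more than 59.7% of all windows. The letters CGTCA, the core of a cAMP response element, were searched on both strands (CGTCA or TGACG). They occurred in 1 of the 7 Bdnf windows, the one upstream of 109692436, with the first base at position -35 relative to the start, and in 17.8% of all windows. The match is a description of the letters only, and no methylation was measured here. Of the 6 genes, 4 had an entry in this table.

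The other genes lie apart from each other. Ntf3 (ENSMUSG00000049107) is on chromosome 6 at 126101412 to 126166910 (minus strand), Ntrk2 (ENSMUSG00000055254) on chromosome 13 at 58806569 to 59133970 (plus strand) and Ntrk3 (ENSMUSG00000059146) on chromosome 7 at 78175959 to 78738012 (minus strand). Ngfr (ENSMUSG00000000120) is on chromosome 11 at 95568818 to 95587735 (minus strand) and Sort1 (ENSMUSG00000068747) on chromosome 3 at 108284082 to 108361511 (plus strand). Both Ntrk2 and Ntrk3 have 6 annotated protein-coding transcript ends, some of them ends of truncated receptors without a kinase domain, and a gene count sums full-length and truncated forms. Antisense genes overlap some of these loci, and the strand setting of the counting is not given in the sources used here. The most highly counted of them, Gm9885 at Ntrk3, had 8.99 to 17.6 counts per 1 M counts (CPM), and Gm45346 at Bdnf had 2 reads in all samples together.

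Between 5.12 and 15.9 M counts were assigned to genes per sample. Tet3 itself averaged 33.5 ± 3.71 (control) and 38.0 ± 5.08 CPM (cKO) in dorsal tissue, against 29.6 ± 5.81 (control) and 30.8 ± 5.02 CPM (cKO) in ventral tissue (SD, n = 3). The labels do not say which part of Tet3 is floxed, so a 3′ tag of it does not check the deletion. Regions differed in their makeup. Levels of 8 oligodendrocyte markers (Mbp and others) summed to 7098 to 8865 CPM in the dorsal and 2641 to 3406 CPM in the ventral samples. Levels of 7 ventral pole markers summed to 70.3 to 120.1 CPM in the dorsal samples, 329 to 355 CPM in the ventral controls and 247 to 299.5 CPM in the ventral cKO samples. The sums of the 5 dorsal pole markers overlapped between regions (199.6 to 338.5 against 258 to 357 CPM), but the markers went different ways. Averaged over both genotypes, 2 of the 5 were higher in the ventral samples. Nov averaged 39.9 (control) and 38.8 CPM (cKO) in dorsal and 76.35 and 74.8 CPM in ventral tissue. Lefty1 averaged 15.3 and 11.6 CPM in dorsal and 9.51 and 8.18 CPM in ventral tissue. In the ventral hippocampus, 12 choroid plexus markers (Ttr, Enpp2 and others) summed to 3306 to 4577 CPM in the controls and to 216, 2646 and 175 CPM in cKO samples 40, 63 and 64. In the dorsal hippocampus they summed to 4973 CPM in control 49 and 3052 CPM in cKO 64, and to 271 to 460 CPM in the other 4 samples. The 7 meningeal markers summed to 262 to 319 CPM in the ventral controls and 161 to 227 CPM in the ventral cKO samples. Their dorsal sums overlapped, at 79.2 to 177 CPM (control) and 89.9 to 140 CPM (cKO). In bulk tissue, fewer cells of a type and less RNA per cell cannot be told apart.

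Of the ligands, Bdnf was lowest in the ventral controls and highest in the dorsal cKO samples. Dorsal controls 41, 49 and 71 gave 66.6, 70.9 and 64.9 CPM, and dorsal cKO samples 40, 43 and 64 gave 68.7, 85.2 and 74.99 CPM. Ventral controls 41, 49 and 50 gave 58.2, 53.1 and 49.1 CPM, and ventral cKO samples 40, 63 and 64 gave 80.6, 60.3 and 62.9 CPM. All 3 ventral controls thus lay below all other samples, and 5 of the 6 ventral samples lay below the lowest dorsal sample. The exception was ventral cKO 40, whose level was above all 3 dorsal controls. In the order of group means, the ventral controls (53.5 ± 4.55 CPM) did not overlap the dorsal controls (67.4 ± 3.12), while the dorsal controls, the ventral cKO samples (67.9 ± 11.1) and the dorsal cKO samples (76.3 ± 8.29) overlapped with their neighbours (SD, n = 3). These levels rest on 383 to 911 counts per sample.

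Ntf3 was sparse, with 12 to 40 counts per sample. Dorsal controls 41, 49 and 71 had 1.47, 2.15 and 2.41 CPM, and dorsal cKO samples 40, 43 and 64 had 2.09, 3.19 and 3.92 CPM. The ventral controls 41, 49 and 50 had 2.55, 2.08 and 1.499 CPM, and the ventral cKO samples 40, 63 and 64 had 2.55, 1.94 and 2.38 CPM. Every group overlapped every neighbour in the order of means, from 2.01 ± 0.485 CPM (dorsal control) to 3.07 ± 0.919 CPM (dorsal cKO; SD, n = 3).

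Among the receptors, Ntrk2 was the steadiest of the 6 genes, with a highest-to-lowest ratio of 1.12 over the 12 samples. The dorsal controls 41, 49 and 71 had 460.3, 510.5 and 500.5 CPM and the dorsal cKO samples 40, 43 and 64 had 488.1, 461.5 and 493 CPM. The ventral controls 41, 49 and 50 had 472.6, 506.7 and 493.6 CPM and the ventral cKO samples 40, 63 and 64 had 516.9, 496.1 and 495.3 CPM. All 4 groups overlapped, and group means ran from 480.9 ± 16.9 CPM (dorsal cKO) to 502.8 ± 12.2 CPM (ventral cKO; SD, n = 3). The sum of the 8 astrocyte markers, among them Slc1a2 and Aldoc, covered 4282 to 5005 CPM over all samples. Slc1a2 made up much of it, with group means of 2361 to 2617 CPM. Gja1, another of the 8, had group means from 91.2 CPM (ventral control) to 140.4 CPM (dorsal control).

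Ntrk3 separated the regions completely in the counts summed per sample. Among dorsal samples, controls 41, 49 and 71 stood at 155.3, 146.2 and 140.5 CPM and cKO 40, 43 and 64 at 164.1, 157.6 and 149.6 CPM. Among ventral samples, controls 41, 49 and 50 stood at 176, 178.9 and 171.3 CPM and cKO 40, 63 and 64 at 198.7, 176.7 and 180.5 CPM. All 6 ventral samples were above all 6 dorsal ones, while the genotype groups of each region overlapped. The order of means was dorsal control (147 ± 7.46 CPM), dorsal cKO (157 ± 7.26), ventral control (175 ± 3.83) and ventral cKO (185 ± 11.8; SD, n = 3), and the one step without overlap was that between the dorsal cKO and the ventral control samples.

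Ngfr was as sparse as Ntf3, with 10 to 55 counts per sample. The dorsal controls 41, 49 and 71 had 1.93, 4.41 and 2.74 CPM and the dorsal cKO samples 40, 43 and 64 had 4.80, 2.35 and 5.04 CPM. The ventral controls 41, 49 and 50 had 3.19, 3.47 and 2.998 CPM, and the ventral cKO samples 40, 63 and 64 had 2.33, 2.22 and 1.49 CPM. All 3 ventral cKO samples were below all 3 ventral controls, whereas the dorsal groups overlapped and spread widely. Defining markers of cholinergic neurons were close to absent, with 5 genes summing to 0.25 to 1.40 CPM over all samples. Those at 0 throughout a group numbered 0 (dorsal control), 2 (dorsal cKO), 1 (ventral control) and 3 (ventral cKO).

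Sort1 varied little. Dorsal controls 41, 49 and 71 were at 271.4, 229.1 and 239.6 CPM, and dorsal cKO samples 40, 43 and 64 at 248, 258.7 and 219.6 CPM. The ventral controls 41, 49 and 50 had 231.2, 238 and 235.9 CPM, and the ventral cKO samples 40, 63 and 64 had 233.7, 228.1 and 224.2 CPM. Neighbouring groups overlapped throughout, from 229 ± 4.78 CPM in the ventral cKO to 247 ± 22.03 CPM in the dorsal control group (SD, n = 3).

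**Figure D1:**
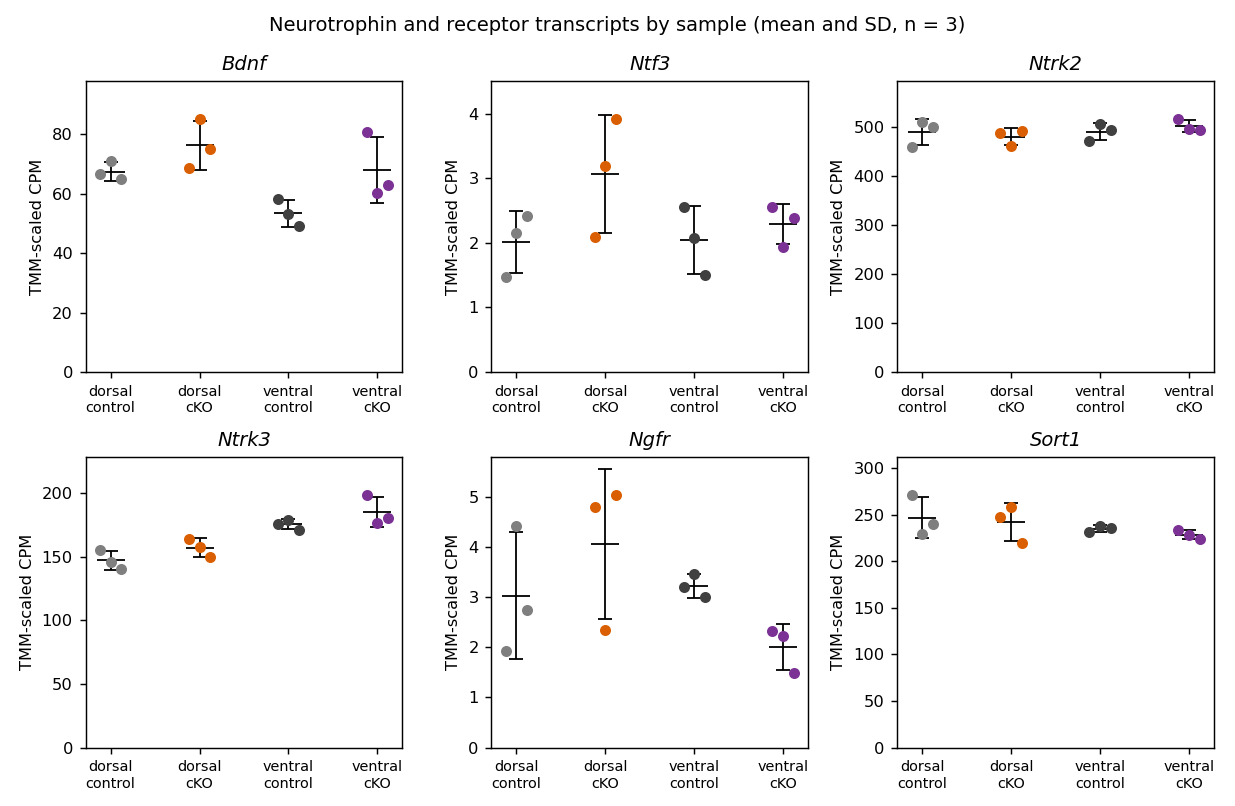
Level of each gene in TMM-scaled CPM (vertical axis, from 0) by sample in the 4 groups; points are samples and bars mark the mean and SD (n = 3). Ventral Ntrk3 lies above dorsal Ntrk3 in all samples, Bdnf is lowest in the ventral controls (49.1 to 58.2 CPM), and Ngfr is lowest in the ventral cKO group (1.49 to 2.33 CPM).

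The first question of the design was whether these transcripts differed between the cKO and control samples of a region. In the dorsal hippocampus none of the 6 genes passed an adjusted p of 0.05 in edgeR's quasi-likelihood test, where 0% of 15692 genes passed. The smallest unadjusted p was that of Bdnf, at 0.0893. Bdnf differed by a log2 fold change (cKO over control) of 0.18 ± 0.10 (SE; 95% interval -0.03 to 0.38; adjusted p = 0.968). Ntf3 differed by 0.55 ± 0.33 (-0.15 to 1.25; adjusted p = 0.968) and Ngfr by 0.38 ± 0.35 (-0.36 to 1.13; adjusted p = 0.968), so for these sparse genes even a change of 2-fold upward lay inside the interval. The intervals of the abundant receptors were narrower, from -0.21 to 0.16 for Ntrk2, -0.08 to 0.26 for Ntrk3 and -0.22 to 0.16 for Sort1. At an unadjusted p under 0.05, the count over all genes was 769 (4.9%) and none of the 6 genes was among them. Leaving out 1 sample moved Ngfr from 0.15 (without control 41) to 0.75 (without control 49), Ntf3 from 0.36 (without cKO 64) to 0.78 (without cKO 40) and Bdnf from 0.09 (without cKO 43) to 0.25 (without cKO 40). DESeq2 called 22 genes and limma-voom 0 in the same comparison, none of them one of the 6. DESeq2 gave no adjusted p for Ntf3 and Ngfr, so it could not call them.

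In the ventral hippocampus no member passed either (0% of 15102 genes passed), and Bdnf and Ngfr had the largest differences. The Bdnf mean was 1.27-fold higher in the cKO samples, a log2 fold change of 0.35 ± 0.13 (SE; 95% interval 0.07 to 0.62; adjusted p = 0.629). The Ngfr mean was lower there, with a log2 fold change of -0.65 ± 0.29 (-1.29 to -0.02; adjusted p = 0.674). These were the 2 members with an unadjusted p under 0.05, against 1092 genes (7.23%) over the whole table. They were also the members whose genotype groups did not overlap, as 12.7% of all genes did. The other 4 genes had estimates of 0.13 ± 0.32 (Ntf3), 0.04 ± 0.08 (Ntrk2), 0.08 ± 0.08 (Ntrk3) and -0.04 ± 0.08 (Sort1), with adjusted p from 0.885 to 0.9505. Without ventral cKO 40, the sample with the highest Bdnf level, the Bdnf estimate was 0.21, and without ventral cKO 63 it was 0.43. The choroid plexus, meningeal and ventral pole sums given above also differed between these groups without overlap, and their part in the Bdnf and Ngfr values was not tested. These sums are not independent, as Dcn is in both the meningeal and the ventral pole list. Dcn averaged 159 CPM in the ventral controls and 114 CPM in the ventral cKO samples. Igfbp2, another meningeal marker, averaged 94.7 and 44.7 CPM. DESeq2 called 9 genes and limma-voom 0 in this comparison, none of them a member. Here too DESeq2 gave no adjusted p for Ngfr and Ntf3, so their absence from its calls says nothing about them.

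Each sample was sequenced in up to 3 runs, which repeat the library and are not separate animals. Ventral Bdnf was higher in all cKO samples than in all controls within each run. In run 1 the controls had 61.4 to 65.1 and the cKO samples 69.5 to 82.9 CPM of the run. In run 2 these ranges were 55.1 to 59.9 and 62.3 to 83.1, and in run 3 they were 42.4 to 51.6 and 53.5 to 72.9. Ventral Ngfr separated the genotypes in run 3 and overlapped in runs 1 and 2. In run 2 Ntrk3 also separated the genotypes in both regions, higher in cKO, and Sort1 separated the ventral genotypes, lower in cKO. Both Ntrk3 and Sort1 separated the regions in run 2, which held 5 dorsal samples. How many of all genes separate within a run was not counted. The Ntrk3 ranges of the regions overlapped in run 1 (dorsal 138.8 to 173.9, ventral 158 to 208.1) and run 3 (138 to 167.2, 159.5 to 187.5). In the authors' deposited table, whose name says that all runs entered the fit, ventral Bdnf had a log2 fold change of 0.33 with a false discovery rate of 0.0131 and was marked as not changed. That table holds a likelihood ratio score. Its rates are unlike the adjusted p above, which came from the quasi-likelihood test on runs summed per sample. The same authors' deposited table gave ventral Ngfr a log2 fold change of -0.65 with a false discovery rate of 0.266. For the dorsal hippocampus the authors' deposited table gave Bdnf a log2 fold change of 0.18 with a false discovery rate of 0.36.

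Whether the genotype difference itself depended on region was asked with the interaction term of the 12-sample fit, and 0% of 16414 genes passed. For Bdnf the ventral less the dorsal log2 fold change was 0.17 ± 0.16 (95% interval -0.17 to 0.51; adjusted p = 0.829). Ngfr had the largest value, -1.03 ± 0.48 (-2.05 to -0.01; adjusted p = 0.623), with 1307 genes (7.96%) at an unadjusted p under 0.05. Ntf3 was at -0.42 ± 0.45, and Ntrk2, Ntrk3 and Sort1 were within 0.07 of 0. Thus a region dependence of the genotype difference was not detected for any of the 6 genes with edgeR. DESeq2 called 34 genes and limma-voom 0 for this term, again without a member.

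**Figure D2:**
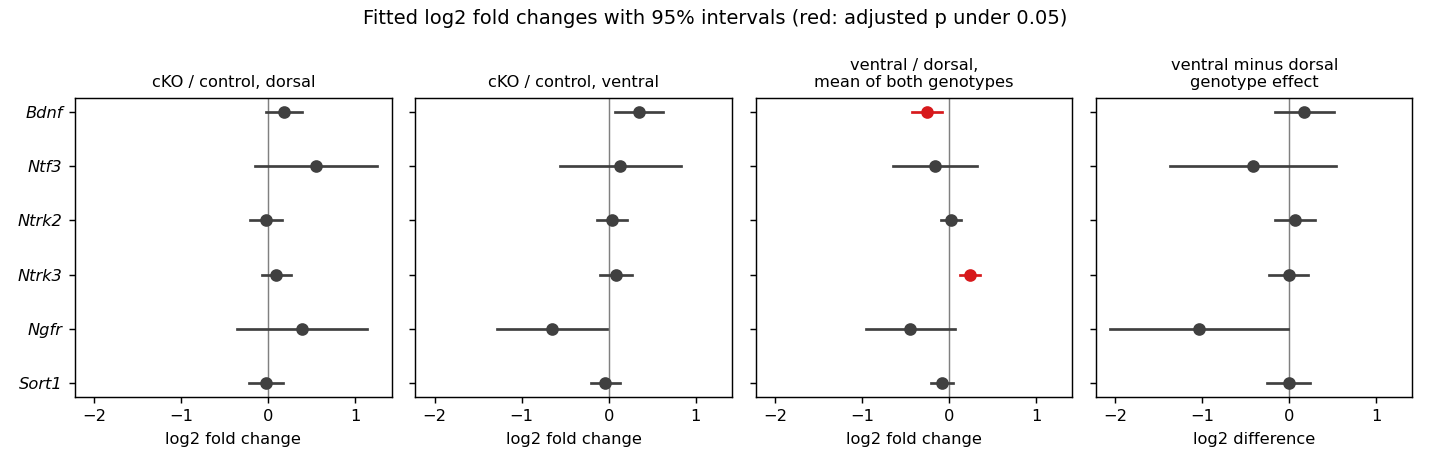
Fitted log2 fold change of each gene (horizontal axis) with its 95% interval in each comparison; a point at 0 means equal levels, and red marks an adjusted p under 0.05. Bdnf (-0.25) and Ntrk3 (0.24) in the comparison of ventral with dorsal hippocampus are the points in red, and the intervals of Ntf3 and Ngfr are the widest.

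Along the hippocampal axis, the ligand Bdnf and the receptor Ntrk3 differed in opposite directions. Averaged over both genotypes, Bdnf was lower in the ventral hippocampus, with a log2 fold change (ventral over dorsal) of -0.25 ± 0.08 (SE; 0.839-fold; adjusted p = 0.0448). Ntrk3 was higher there, with 0.24 ± 0.05 (1.18-fold; adjusted p = 0.00567). These 2 of 6 genes passed the test, beside 14.1% of the 16414 genes tested, of which 6.67% were higher and 7.43% lower in the ventral hippocampus. Ntrk3 was also among the 7.62% of genes for which the 6 ventral and the 6 dorsal samples did not overlap. The other genes did not pass: Ntf3 had -0.16 ± 0.23 (adjusted p = 0.714), Ntrk2 0.03 ± 0.05 (0.798), Ngfr -0.45 ± 0.24 (0.258) and Sort1 -0.08 ± 0.06 (0.412).

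The 2 calls were not equally firm. That of Bdnf was kept in 3 of 12 fits that left out a sample each, namely those without dorsal cKO 40, ventral cKO 40 or ventral control 41. Its adjusted p over these 12 fits ran from 0.00864 to 0.125 and its log2 fold change from -0.32 to -0.21. The Ntrk3 call was kept in all 12 such fits, with log2 fold changes of 0.22 to 0.26 and adjusted p of 0.00625 to 0.0195. When the number in the title was taken as a block, over the 8 samples whose number occurs in both regions, neither passed. Bdnf was then at -0.16 (adjusted p = 0.395) and Ntrk3 at 0.25 (adjusted p = 0.0552), and that fit called 1398 of 16547 genes. With the number as a random effect over all 12 samples in limma-voom, both passed. Oligodendrocyte and ventral pole marker sums differed between the regions as given above, and their part in the Bdnf and Ntrk3 differences was not tested.

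Within single genotypes no member passed. Among controls, where 7.86% of genes passed, Bdnf had a log2 fold change (ventral over dorsal) of -0.34 ± 0.11 (adjusted p = 0.0809) and Ntrk3 of 0.24 ± 0.08 (adjusted p = 0.0623). Among cKO samples, where 6.16% passed, Bdnf had -0.17 ± 0.11 (adjusted p = 0.463) and Ntrk3 0.24 ± 0.08 (adjusted p = 0.0837). The Ntrk3 estimates of both genotypes were thus nearly equal, with an interaction of -0.01 ± 0.11. Ngfr had 0.07 ± 0.33 in the controls and -0.96 ± 0.35 in the cKO samples (adjusted p = 0.128). Without dorsal cKO 43 the Ngfr value in the cKO samples was -1.27 with an adjusted p of 0.0453.

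The 4 numbers present in both regions allow a look at each pair directly. Ntrk3 was higher in the ventral sample of all 4 pairs, with log2 ratios of 0.28 (cKO 40), 0.18 (control 41), 0.29 (control 49) and 0.27 (cKO 64). Bdnf was lower in the ventral sample in control 41 (-0.19), control 49 (-0.42) and cKO 64 (-0.25), and higher in cKO 40 (0.23). Ngfr was lower in ventral cKO 40 (-1.04), cKO 64 (-1.76) and control 49 (-0.35), and higher in control 41 (0.73). Ntf3 ratios ran from -0.72 to 0.79, those of Sort1 from -0.23 to 0.05 and those of Ntrk2 from -0.01 to 0.08, so none of these genes moved one way in every pair.

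**Figure D3:**
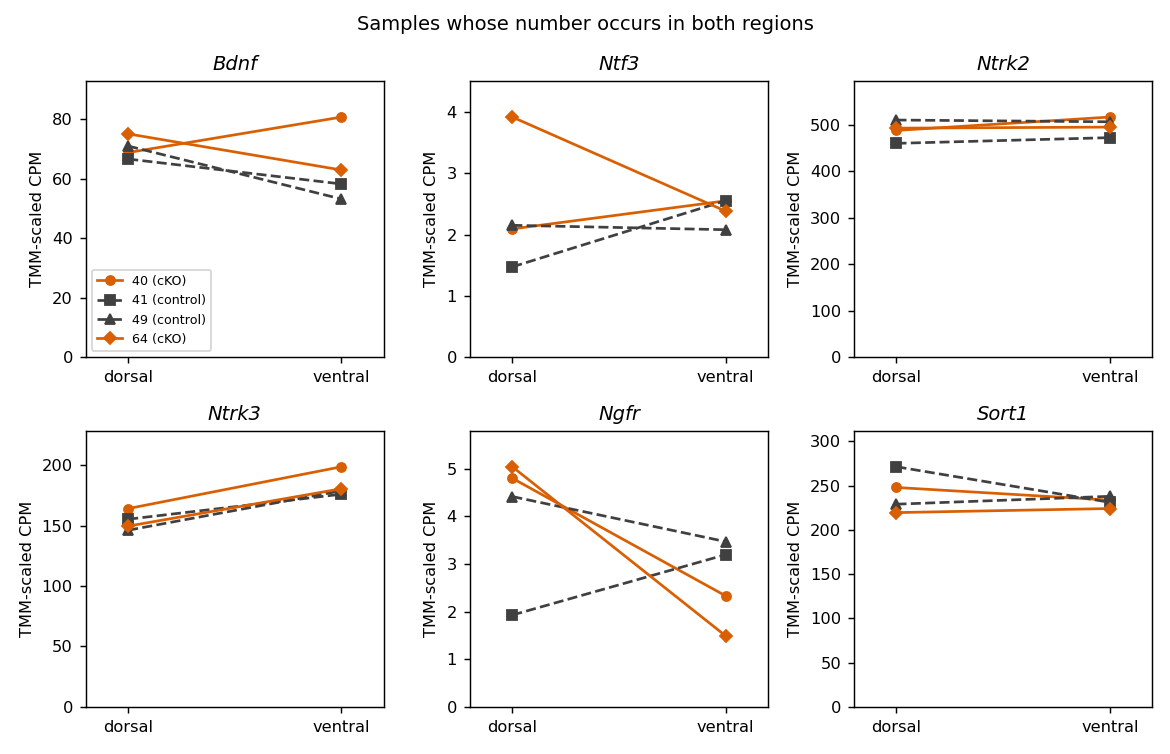
Level in TMM-scaled CPM (vertical axis, from 0) of the 4 numbers that occur in both regions, with a line joining the dorsal and ventral sample of a number. Every Ntrk3 line goes up toward the ventral sample, and the Bdnf line of cKO 40 goes up while the other 3 go down.

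Genes whose log2 CPM followed each member most closely over the 12 samples are given as a description; the points share region, genotype and depth. Ntrk3 was followed by Slc4a7 (Pearson's r = 0.951), Astn1 (0.943) and Chst11 (0.942). Bdnf was followed by Gm45223 (0.912), Gm45768 (0.895) and Zdhhc21 (0.891). For Ngfr these were Gla (0.929), Alms1 (0.914) and Ephx1 (0.908), and for Ntf3 they were Cabp1 (0.907), 1700029J07Rik (0.865) and Dpf2 (0.857). For Sort1 they were Sphkap (0.883) and Drp2 (0.845), and for Ntrk2 Cenpu (0.878), Lcn2 (0.835) and Hax1 (0.834).

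The remaining ligands and receptors of the family were listed as 8 genes, of which 6 were tested. Sorcs2, a relative of sortilin that binds p75, was higher in the ventral hippocampus (log2 fold change 0.36 ± 0.09; adjusted p = 0.0138), the one gene of the list to pass between regions. Without ventral cKO 64 its adjusted p was 0.0501. No gene of this list passed between genotypes. Sorcs1 had log2 fold changes (cKO over control) of 0.34 in the dorsal and 0.48 ± 0.24 in the ventral hippocampus, and Nradd, a p75 homologue, had 1.047 ± 0.43 in the dorsal hippocampus. The ventral Sorcs1 value was 0.24 without cKO 64 and 0.72 without cKO 40, and the Nradd value 0.74 without control 71 and 1.74 without control 49.

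Of 19 genes that process, store or secrete neurotrophins, 15 were tested, and 3 were higher and 1 lower in the ventral hippocampus, where 6.67% of all genes were higher and 7.43% lower. Hap1, a huntingtin partner that carries BDNF precursor in vesicles, had the lowest p, with group means of 70.8 and 69.9 CPM in the dorsal and 211 and 199.8 CPM in the ventral control and cKO samples (log2 fold change 1.54 ± 0.06; adjusted p = 3.0e-11). Cadps2, which promotes dense-core vesicle release, was higher by 0.35 ± 0.08 (adjusted p = 0.00474), and Cpe, the carboxypeptidase that acts as a sorting receptor for BDNF precursor, by 0.21 ± 0.06 (adjusted p = 0.0264). Pcsk6, a proprotein convertase, was lower (-0.61 ± 0.15; adjusted p = 0.00902). The median over the tested list was 0.00 on the log2 scale. Between genotypes 0 of the 15 passed in either region with the filter on low counts. The lowest unadjusted p were those of Scg2, a granin of dense-core vesicles, with -0.32 ± 0.09 in the dorsal and 0.62 ± 0.17 in the ventral hippocampus. Without the filter the ventral value of Scg2 passed (adjusted p = 2.17e-07), as did 302 of 29146 genes in that setting. Its interaction was 0.94 ± 0.20 (adjusted p = 0.335).

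Of 50 genes downstream of Trk receptors, 48 were tested, and 7 were higher and 8 lower in the ventral hippocampus, with a median of -0.01, beside 6.67% and 7.43% of all genes. Kinases of the ERK cascade were among the higher ones: Mapk3 rose by 0.41 ± 0.09 (adjusted p = 0.00619) and Map2k1 by 0.26 ± 0.07 (adjusted p = 0.0138). These 2 are named here after their values were seen. The lowest p belonged to genes that fell: the adaptor Gab1 (-0.89 ± 0.09; adjusted p = 2.86e-06), the kinase Prkcd (-1.001 ± 0.14; 5.8e-05) and the small GTPase Rap1a (-0.37 ± 0.08; 0.00245). Prkcd is itself 1 of the 5 thalamic markers, which summed to 149 to 189 CPM in the dorsal and 119 to 148 CPM in the ventral samples. Its own group means were 27.5 (control) and 36.5 CPM (cKO) in dorsal and 17.8 and 14.4 CPM in ventral tissue. The sum is thus not independent of Prkcd, and the part of thalamic tissue was not tested. Between genotypes 0 of 48 passed in either region, with medians of 0.01 (dorsal) and 0.05 (ventral).

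Of 28 symbols listed for partners of p75, 27 were found among the counted genes, and all 27 were tested. Of these, 3 were higher and 5 lower in the ventral hippocampus (all genes: 6.67% and 7.43%). Mag (-1.47 ± 0.07; adjusted p = 1.048e-09) and Omg (-0.36 ± 0.08; 0.00595), myelin ligands of the Nogo receptor complex to which p75 belongs, were lower. Mag is itself one of the 8 oligodendrocyte markers whose sum was lower in every ventral sample. With the number as a fixed block Omg was at -0.32 (adjusted p = 0.0698). Bex3, which binds the p75 intracellular domain, was higher (0.27 ± 0.06; adjusted p = 0.00723). Between genotypes 0 of 27 passed; Rtn4r, the Nogo receptor, had the lowest ventral p of the list, with -0.44 ± 0.13.

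Among 21 regulators of Bdnf transcription, all tested, 0 were higher and 2 lower in the ventral hippocampus, namely Tet1 (-0.54 ± 0.11; adjusted p = 0.00376) and Tcf4 (-0.19 ± 0.06; adjusted p = 0.0393). Over all genes 7.43% were lower. The list median was -0.15. The Tcf4 call was kept in 5 of 12 fits that left out a sample each, with adjusted p up to 0.117. With the number as a fixed block neither passed, with Tet1 at -0.48 (adjusted p = 0.0861) and Tcf4 at -0.18 (adjusted p = 0.216). Between genotypes 0 of 21 passed in edgeR with the filter on low counts. Usf2, an E-box factor, had -0.59 ± 0.13 in the dorsal hippocampus (adjusted p = 0.583) and 0.30 ± 0.11 in the ventral, with an interaction of 0.89 ± 0.19 (adjusted p = 0.335). DESeq2 called dorsal Usf2 (adjusted p = 0.00449), and so did edgeR without dorsal control 49 (adjusted p = 0.0425) or without the filter (adjusted p = 8.98e-06). Without the filter 94 of 29407 genes passed in the dorsal comparison. Crtc2, a CREB coactivator, had 1.49 ± 0.54 in the ventral hippocampus, with group means of 3.84 ± 3.04 CPM in the controls and 11.4 ± 6.31 CPM in the cKO samples (SD, n = 3). The Crtc2 value was 0.96 without ventral cKO 40 and 2.21 without ventral control 41. It passed in edgeR without the filter (adjusted p = 4.0e-08), where 302 of 29146 genes passed, although its levels spread widely within both groups.

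Genes that BDNF signalling is known to induce were followed as a list of 14, all of them tested; many of them also respond to neuronal activity through other routes. In the ventral hippocampus 0 were higher and 4 lower than in the dorsal, with a list median of -0.34, where 7.43% of all genes were lower. Arc, which acts at synapses, fell by 1.08 ± 0.16 on the log2 scale (adjusted p = 0.000137), and the transcription factor genes Egr1 and Nr4a1 fell by 0.85 ± 0.12 (7.47e-05) and 0.95 ± 0.15 (0.000287). The fourth was Dusp6, an ERK phosphatase (-0.39 ± 0.08; adjusted p = 0.00209). Between genotypes none of the 14 passed in edgeR with the filter on low counts. Without that filter edgeR called ventral Egr1 (adjusted p = 2.45e-08), ventral Nr4a1 (7.6e-08) and dorsal Arc (0.0411). In that setting 302 of 29146 genes passed in the ventral and 94 of 29407 in the dorsal comparison. In the ventral hippocampus 11 of 14 had a higher mean in the cKO samples, with a median log2 fold change of 0.33, and 6 were at an unadjusted p under 0.05, all 6 of them higher, where 3.8% of all genes were so. The list was chosen with earlier results of these data known, so these counts do not test it as a set. Egr1 was at 282 to 420 CPM in the ventral controls and 492 to 587 CPM in the ventral cKO samples (0.65 ± 0.14; adjusted p = 0.609), and DESeq2 called it (adjusted p = 0.0125). In the dorsal hippocampus 8 of 14 had a higher mean in the cKO samples, with a median of 0.07. There 1 gene was higher and 2 lower at an unadjusted p under 0.05, a level that 4.9% of all genes reached. These were Arc (0.38 ± 0.16), Dusp6 (-0.28 ± 0.11) and Npy (-0.28 ± 0.12). Neuronal marker lists did not all go one way. In the ventral genotype comparison 4 of 4 excitatory neuron markers (median 0.13) had a higher mean in the cKO samples. So had 5 of 6 dentate granule cell markers (median 0.25) and 4 of 6 inhibitory neuron markers (median 0.06). For CA1, CA2, CA3 and subiculum markers it was 2 of 4, 2 of 4, 1 of 3 and 1 of 4 tested. Their medians were -0.03, -0.04, -0.01 and -0.19. Summed excitatory markers were at 4988 to 5385 CPM in the ventral controls and 5114 to 6326 CPM in the ventral cKO samples, and the dentate sums were at 82.6 to 129 and 80.3 to 167 CPM, so both overlapped. Between regions in controls 0 of the 4 excitatory markers were higher in the ventral hippocampus (median -0.33). In the cKO samples 2 of 4 were higher there (median 0.08), and averaged over both genotypes 1 of 4 (median -0.12). The part of these markers, and of the choroid plexus, meningeal and ventral pole sums given above, in these values was not tested.

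**Figure D4:**
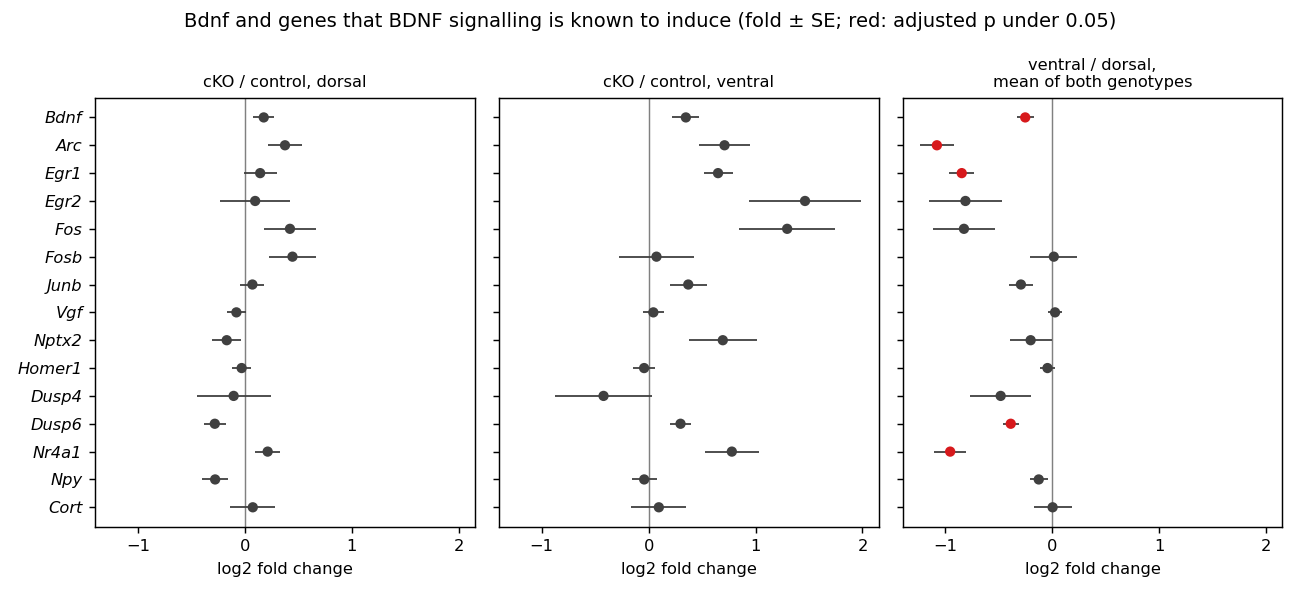
Fitted log2 fold change ± SE (horizontal axis) of Bdnf and the 14 genes that BDNF signalling is known to induce, for each genotype comparison and for ventral against dorsal hippocampus; red marks an adjusted p under 0.05. In the ventral genotype comparison 11 of the 14 lie to the right of 0, and none of the points of either genotype comparison is red.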

How the data were processed

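Whole-number counts per gene and run were deposited by the authors, 1 table per region. The submitters' processing notes name cutadapt, HISAT2, featureCounts and edgeR, and the GRCm38 build; versions, annotation and strand setting are not given in the sources used here. The deposited tables also hold a scaled signal per run (counts scaled to CPM by the authors, not tested here). Per the file headers, they hold the authors' log2 fold change, log2 CPM, a likelihood ratio score, p-value and false discovery rate. Per the labels, a QuantSeq 3′ kit was used on 500 ng of RNA per library.

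Counts were summed over the 35 runs into 12 samples. A gene listed in only 1 table was set to 0 in the other. Levels are CPM scaled by TMM over 12 samples, with SD between samples. Levels of different genes were not compared. Tests used edgeR 4.0.16 (R 4.3.3), with the quasi-likelihood test, TMM, filterByExpr by group and Benjamini-Hochberg adjustment over all genes at 0.05. Genotype was fitted per region, region and interaction over 12 samples. For 3 against 3 samples the smallest exact permutation p is 0.1, so none was computed. Median SEs of a log2 fold change were 0.15 (dorsal), 0.16 (ventral), 0.12 (region) and 0.24 (interaction). Tested on simulated data, the ventral comparison (15102 genes) recovered 36% of genes changed 1.5-fold and 77% of those changed 2-fold, and the region comparison (16414 genes) 58% and 79%. Of 131 and 151 calls in these simulations, 18 and 14 were false.

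Alternatives were DESeq2 1.42.0, limma-voom 3.58.1, DESeq2 size factors, upper quartile scaling, single runs, no filter, a filter on mean counts of at least 10, all 12 samples in 1 fit, each sample left out, and replicate blocks. Named genes are the 6 members, Tet3, the 3 lowest p per list and comparison, and the 3 genes most alike to each member by log2 CPM (prior count 3). Some genes that this rule takes are not reported here. Members and lists were chosen with earlier results of these data known. Coordinates come from GENCODE M21.

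The labels do not state that a title's number is an animal's; it was read so because each of the 4 numbers found in both regions carries the same genotype in both. The main fits use no number. The labels do not say that the samples of a group are separate animals, and if they are not, p-values measure only the spread between these samples. Same-numbered samples deviated from their group means with correlations of 0.0354 (40), 0.106 (41), 0.0763 (49) and -0.107 (64) between regions. The genotype groups of a region share no number.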

Additional observations from a re-analysis of the deposited data

How the results depend on the processing

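With 3 samples per group, sparse genes (Ntf3, Ngfr) were limited by counting, and the filter dropped both in run 1 alone and Ntf3 in the ventral fit of run 3 alone. Of the 6 members, 2 passed between regions (mean of both genotypes), 1 in run 1 alone (Ntrk3 then at 0.23, adjusted p = 0.0659), 1 in run 3 alone (Bdnf -0.22, adjusted p = 0.13), 0 with the replicate block as a fixed term, and 1 to 2 with a sample left out. Among controls 1 passed with a filter on a mean of at least 10 counts (Ntrk3, adjusted p = 0.0475) and 0 otherwise. Among cKO samples 0 to 1 passed with a sample left out. No member passed between genotypes or in the interaction under any alternative run. Between genotypes, DESeq2 gave Ntf3 and Ngfr no adjusted p and so could not call them. Where no filter was used, all-gene calls went from 0 to 94 (dorsal), 302 (ventral) and 265 (interaction); the cause was not tested. Ventral Bdnf had an SE of 0.120 without the filter and 0.125 with it. Its unadjusted p in edgeR's test was 0.00372 without the filter and 0.0170 with it. The p-values without the filter are thus not on the same footing as those of the main fit.

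Some estimates changed sign, on the log2 scale; the cause was not tested. In run 1 alone these were Ntrk2 (0.0441 dorsal, -0.0312 ventral, -0.0289 between regions in cKO, 0.0555 between regions in controls, -0.0843 for the interaction), Sort1 (0.0747 dorsal, 0.0254 ventral), Rela (-0.0369 dorsal) and Arhgdia (0.0426 ventral). In run 3 alone they were Sort1 (0.000617 dorsal), Tet3 (-0.0499 ventral), Sorcs2 (0.0021 ventral), Ntf3 (-0.0771) and Ngfr (-0.142) between regions in controls, and Ntrk3 (0.018) for the interaction. With the replicate block as a fixed term they were Ntf3 (0.0952 between regions), Ntrk2 (0.00259 between regions in controls), Ntrk3 (0.0453) and Sort1 (0.0673) for the interaction. Ntrk2 between regions in controls was also 0.00516 with upper quartile scaling, 0.0013 with no filter and 0.000467 with a mean of at least 10 counts. With a sample left out, ranges that crossed 0 were -0.0749 to 0.00753 (Ntrk2, dorsal), -0.0853 to 0.0445 (Sort1, dorsal), -0.0308 to 0.364 (Ntf3, ventral), -0.211 to 0.00932 (Sorcs2, ventral), -0.164 to 0.00448 (Sorcs3, ventral) and -0.0862 to 0.199 (Tet3, ventral). Between regions in controls they were -0.16 to 0.435 (Ngfr), -0.188 to 0.22 (Ntf3), -0.0449 to 0.0195 (Ntrk2) and -0.139 to 0.00105 (Sort1), and for the interaction -0.0653 to 0.0326 (Ntrk3) and -0.0851 to 0.0546 (Sort1).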
